A study of Gallus gallus with 3 samples.

Results

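Glucocorticoid and fasting response genes were followed in the breast muscle of male broilers of the Arbor Acres breed, chickens (Gallus gallus) raised for meat. The set held 10 genes (FKBP5, KLF9, KLF15, SESN1, PIK3IP1, SGK1, BCL6, TIPARP, MAOA and ARRDC3) of 10663 named genes. They were found by their symbols in an NCBI RefSeq gene table, through transcript accessions matched without their version, and the 14 matched transcripts were summed per gene. The 10 genes were chosen by measured values, the differences of their FPKM between the libraries described here, so those differences are a description and carry no test. All 10 had a mean of at least 1 FPKM (fragments per kilobase, a level per length of transcript and per size of library), as did 6650 named genes in all.

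The birds were 42 days old and had been kept in air with ammonia at 50 ± 3 ppm. The 3 libraries, called library 1, 2 and 3 after their titles, formed 1 group of 1 breed, 1 sex and 1 exposure. No library of another exposure was analysed here, so nothing here is an effect of ammonia. Whether separate birds gave the libraries is not stated in the labels, and the spread between them may be technical. The labels used here give no hormone level, feeding time or hour of sampling.

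Glucocorticoids are adrenal steroids, in birds chiefly corticosterone, that pass into cells and bind the glucocorticoid receptor. The receptor is held ready by HSP90 and its co-chaperones, moves to the nucleus with its hormone and raises or lowers the transcription of target genes. In fasting, insulin signalling falls and FOXO transcription factors enter the nucleus. Both routes are known in mammalian skeletal muscle for shifting the fibre from protein building and glucose use towards amino acid release and fat use.

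The tables carry no read counts, so depth is unknown and no counting interval is given. Their summed values were 569361, 586193 and 573648 FPKM in libraries 1 to 3. Across named genes with a mean of at least 1 FPKM, log2 levels of libraries 2 and 3 correlated at 0.973 (Pearson), against 0.950 for library 1 with either of them. The median gene lay 0.13 higher in library 1 than in library 2, and 0.16 higher than in library 3, on the log2(FPKM + 1) scale. Skeletal muscle markers were abundant: the fast myosin light chain gene MYL1 and the fast troponin genes TNNT3, TNNI2 and TNNC2 lay between 9696 and 18325 FPKM in every library. Parvalbumin (PVALB), also on the muscle list, was at 1.28 to 2.37 FPKM.

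The 10 genes summed to 925 FPKM in library 1, 159 FPKM in library 2 and 160.0 FPKM in library 3. All 10 were highest in library 1, which the choice of genes used, and 51.5% of all 6650 genes were highest there. The lowest level was in library 3 for 7 of the 10 genes and in library 2 for 3, beside 39.4% and 35.0% of all genes. SESN1 alone made up 59.8% of the sum in library 1, 34.5% in library 2 and 33.1% in library 3. Without SESN1, the other 9 genes summed to 372, 104 and 107 FPKM.

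**Figure D1:**
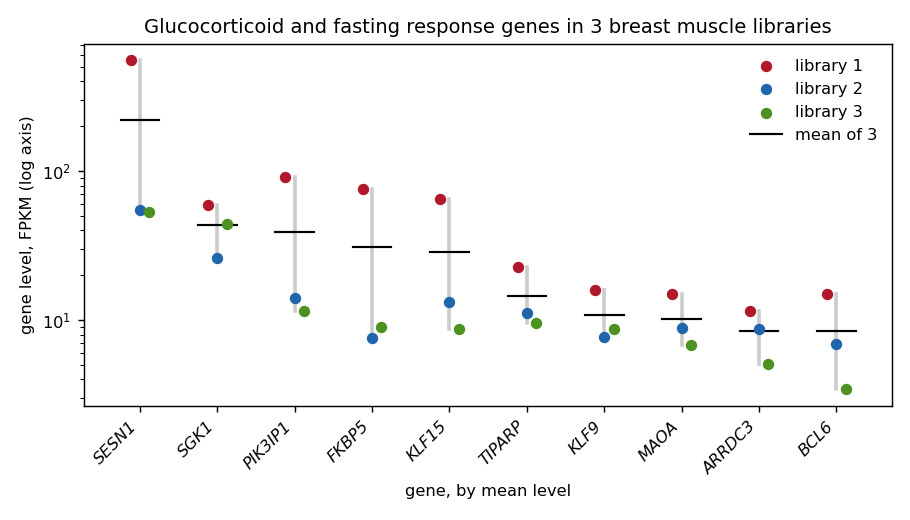
Level of each of the 10 genes in FPKM on a log axis, by gene in the order of mean level, with 1 point per library, a black line at the mean of 3 libraries and a grey line from the lowest to the highest. Library 1 (red) is the highest point of all 10 genes. SESN1, PIK3IP1, FKBP5 and KLF15 have libraries 2 and 3 close together far below it, at 53.0 to 55.0 FPKM against 553 FPKM for SESN1.

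FKBP5 encodes a co-chaperone of HSP90 that lowers hormone binding by the glucocorticoid receptor, and in mammals it is itself a receptor target, which closes a feedback loop. It stood at 76.0 FPKM in library 1, 7.63 FPKM in library 2 and 8.97 FPKM in library 3, a mean of 30.9 ± 39.1 FPKM (SD, n = 3). Library 1 thus stood 9.96-fold above library 2 and 8.47-fold above library 3, while libraries 2 and 3 lay within 1.5-fold of each other. Without library 1 the mean was 8.30 FPKM.

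Of 10 other FKBP genes matched, 3 were highest in library 1, 4 in library 2 and 3 in library 3, beside 51.5%, 26.1% and 22.4% of all genes. FKBP4, the HSP90 co-chaperone most like FKBP5, which aids receptor movement in mammals, was listed at 59.0, 61.8 and 51.0 FPKM. FKBP5 therefore exceeded FKBP4 in library 1 and lay below it in the other libraries. The log2 ratio of FKBP5 to FKBP4 was 0.37, -3.02 and -2.51 in libraries 1 to 3.

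The Krüppel-like factors KLF9 and KLF15 are zinc-finger transcription factors that glucocorticoids induce in mammals. KLF15 drives genes of branched-chain amino acid breakdown in mouse muscle. KLF15 was at 64.7, 13.2 and 8.70 FPKM, with a mean of 28.9 ± 31.1 FPKM (SD, n = 3). Library 1 was 4.91-fold above library 2 and 7.44-fold above library 3, and libraries 2 and 3 were 1.51-fold apart. Without library 1 the mean was 10.9 FPKM.

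KLF9 had a smaller range, at 16.0, 7.73 and 8.75 FPKM, with a mean of 10.8 ± 4.53 FPKM (SD, n = 3). Library 1 was 2.07-fold above library 2 and 1.83-fold above library 3. The distance between the pair changed with the library. KLF15 exceeded KLF9 by a log2 ratio of 2.01 in library 1 and 0.77 in library 2, and was level with it in library 3, at -0.01. Of 5 other KLF genes with a mean of at least 1 FPKM, 3 were highest in library 1, beside 51.5% of all genes. One of them, KLF6, was listed at 49.3, 10.9 and 14.2 FPKM. Its log2(FPKM + 1) lay 2.07 and 1.73 higher in library 1 than in libraries 2 and 3, against 0.96 and 0.80 for KLF9.

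SGK1 encodes the serum- and glucocorticoid-regulated kinase, which acts on ion channels and, like AKT, phosphorylates FOXO factors. SGK1 was listed at 59.6, 25.9 and 44.1 FPKM, a mean of 43.2 ± 16.9 FPKM (SD, n = 3). With FKBP5 and KLF9 it was lowest in library 2. Of these 3, only SGK1 had libraries 2 and 3 further apart than libraries 1 and 3, with library 3 at 1.35-fold below library 1. The other 7 genes were lowest in library 3, which fixed that order for them. Among those 7, ARRDC3 had libraries 2 and 3 further apart (1.72-fold) than libraries 1 and 2 (1.32-fold). SGK3, a relative of SGK1, was at 2.38, 3.45 and 1.86 FPKM, and SGK2 was listed at 0 in every library.

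SESN1 encodes sestrin 1, which binds the GATOR2 complex and holds back mTORC1, the kinase complex that promotes protein synthesis. It had the highest level of the set, at 553, 55.0 and 53.0 FPKM in libraries 1 to 3, with a mean of 220 ± 288 FPKM (SD, n = 3). Library 1 was 10.1-fold above library 2 and 10.4-fold above library 3, the largest ratios of the 10 genes, and libraries 2 and 3 were nearly equal. Without library 1 the mean was 54.0 FPKM. The other sestrin genes, SESN2 and SESN3, were not matched.

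SESN1 was the only one of the 10 with more than 1 matched transcript. Its 5 predicted transcripts are called a to e here, in the order of their level in library 1. Transcript a was listed at 296, 3.53 and 11.9 FPKM, and made up 53.4%, 6.43% and 22.5% of the gene in libraries 1 to 3. Transcript b was at 176, 23 and 21.1 FPKM, with shares of 31.8%, 41.8% and 39.8%.

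Transcript c was at 72.4, 28.1 and 18.8 FPKM, with shares of 13.1%, 51.0% and 35.4%. Transcript d reached 9.46, 0.307 and 1.17 FPKM, and transcript e stayed under 0.1 FPKM. The leading transcript was thus a in library 1, c in library 2 and b in library 3. Division of reads between overlapping transcripts is an estimate, so these shares are less certain than the sum. With transcript a left out, the rest of SESN1 was at 258, 51.4 and 41.0 FPKM, which put library 1 at 5.01-fold and 6.28-fold above libraries 2 and 3.

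**Figure D2:**
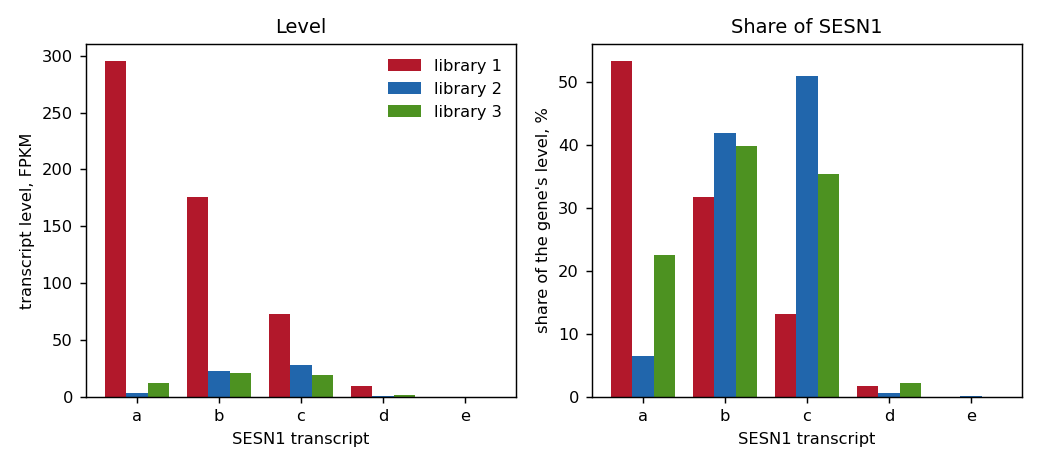
Level in FPKM (left) and share of the gene's summed level in percent (right) of the 5 SESN1 transcripts a to e, with 1 bar per library. Transcript a holds 53.4% of the gene in library 1, 6.43% in library 2 and 22.5% in library 3, and transcripts b and c are also highest in library 1 by level.

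PIK3IP1 encodes a membrane protein that inhibits PI3-kinase, the enzyme that carries the insulin signal to AKT. It was listed at 91.2, 14.1 and 11.6 FPKM, a mean of 39.0 ± 45.3 FPKM (SD, n = 3). Library 1 was 6.47-fold above library 2 and 7.88-fold above library 3, and libraries 2 and 3 were 1.22-fold apart. Without library 1 the mean was 12.8 FPKM.

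BCL6, a transcriptional repressor best known from germinal centre B cells, was listed at 14.9, 6.88 and 3.43 FPKM. Its mean was 8.41 ± 5.89 FPKM (SD, n = 3), and libraries 2 and 3 were 2.01-fold apart. TIPARP encodes a mono-ADP-ribosyltransferase that the aryl hydrocarbon receptor induces and that restrains that receptor. TIPARP was listed at 22.7, 11.2 and 9.59 FPKM, with a mean of 14.5 ± 7.18 FPKM (SD, n = 3), 2.04-fold and 2.37-fold higher in library 1 than in libraries 2 and 3.

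MAOA encodes monoamine oxidase A of the outer mitochondrial membrane, which breaks down serotonin and noradrenaline. It was listed at 15.0, 8.88 and 6.85 FPKM, a mean of 10.2 ± 4.22 FPKM (SD, n = 3). ARRDC3 encodes an arrestin-domain adaptor that binds β-adrenergic receptors and NEDD4-type ubiquitin ligases in mammals. It was at 11.6, 8.77 and 5.09 FPKM, a mean of 8.48 ± 3.26 FPKM (SD, n = 3), and its library 2 lay nearer to library 1 (1.32-fold) than that of any other gene of the set.

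By the mean the order was SESN1, SGK1, PIK3IP1, FKBP5, KLF15, TIPARP, KLF9, MAOA, ARRDC3 and BCL6. Only part of that order held in every library. The SD exceeded the mean for SESN1, FKBP5, KLF15 and PIK3IP1. PIK3IP1 was above both FKBP5 and KLF15 in each library, while SGK1 was below these 3 genes in library 1 and above them in libraries 2 and 3, and FKBP5 and KLF15 changed places between libraries. TIPARP, KLF9, MAOA, ARRDC3 and BCL6 had overlapping ranges between 3.43 and 22.7 FPKM. SESN1, at 53.0 FPKM in its lowest library, exceeded every other member in each library.

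A gene was called apart in a library where its log2(FPKM + 1) lay at least 1, a 2-fold difference, above or below each of the other libraries. With 1 library at each position no test exists. SESN1, FKBP5, PIK3IP1, KLF15 and BCL6 were apart upward in library 1, 5 of 10 genes, where 2.96% of all 6650 genes were. The choice of genes used these values, so nothing is read from the count. BCL6 lay just inside the limit with a smaller log2 lead of 1.01 and TIPARP just outside with 0.96. After the libraries were scaled by the median of their gene ratios, BCL6 was no longer apart and the other 4 genes still were. With library 2 left out, ARRDC3, MAOA and TIPARP were also apart and the count was 8, where 6.23% of all genes were. With fewer libraries to exceed, the count could only stay or rise.

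Ranked over the 6650 genes by the smaller of its leads over libraries 2 and 3, SESN1 was at place 5, FKBP5 at 6, PIK3IP1 at 10 and KLF15 at 19. BCL6 followed at place 186, TIPARP at 218, KLF9 at 345 and MAOA at 473. SGK1 was at place 1063 and ARRDC3 at 1315. The set thus held a group of 4 genes with smaller log2 leads of 2.21 to 3.31 and a group of 6 with 0.36 to 1.01.

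**Figure D3:**
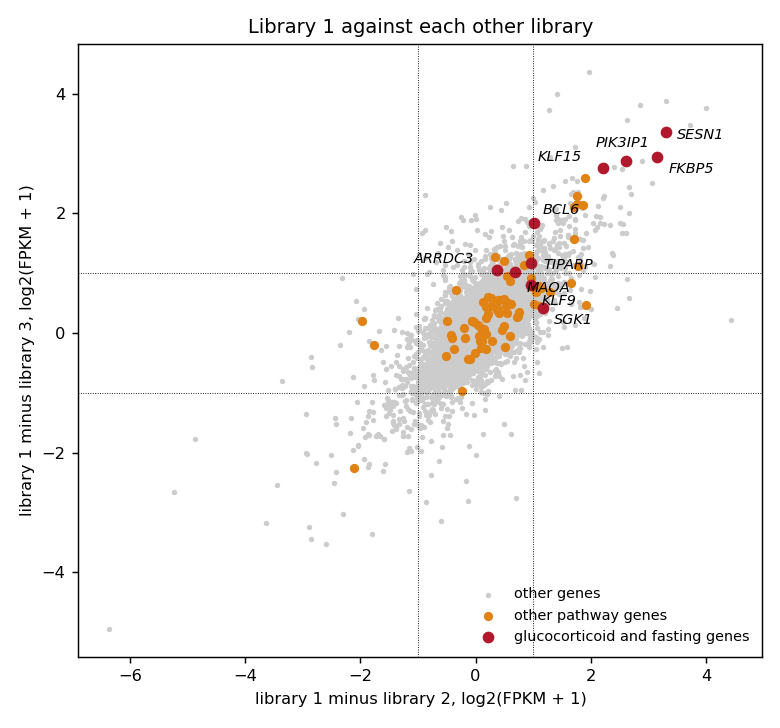
Difference of log2(FPKM + 1) between library 1 and library 2 (x axis) and between library 1 and library 3 (y axis) for 6650 genes, with the 10 glucocorticoid and fasting genes in red, genes of the other pathway lists in orange, and dotted lines at 2-fold. SESN1, FKBP5, PIK3IP1 and KLF15 lie at the upper right edge of all genes, and the other 6 lie near the 2-fold lines.

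Between libraries 2 and 3, with library 1 left out, none of the 10 genes was at least 2-fold apart on the log2(FPKM + 1) scale, where 4.02% of all genes were. The median log2 difference of library 2 from library 3 was 0.23 over the 10 genes and 0.02 over all genes. Against library 1 the medians were 1.09 for library 1 minus library 2 and 1.51 for library 1 minus library 3, beside 0.13 and 0.16 over all genes.

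Ratios between related genes within a library were not used to choose the set, and 8 of 14 listed pairs were measured in every library. The levels of the members were used, so a shift of a member's ratio between libraries repeats that choice. The call asked that the log2 ratio keep its sign in every library and that its mean exceed 2 SD, and 4 of 8 ratios met it. MAOA exceeded MAOB, which encodes the other monoamine oxidase, in every library, at log2 ratios of 4.33, 4.92 and 4.83 and a mean of 4.69 ± 0.32 (SD, n = 3). MAOB itself was listed at 0.744, 0.293 and 0.241 FPKM, so the ratio rests on low values. The ratio was lowest in library 1, but that order depends on the low values of MAOB. With 1 FPKM added to each gene, library 1 no longer had the lowest ratio, and the mean was 2.93 ± 0.27 (SD, n = 3).

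SGK1 exceeded SGK3 by 4.04 ± 0.98 and TIPARP exceeded PARP12, another mono-ADP-ribosyltransferase, by 2.65 ± 0.56 (log2 ratio, mean and SD of 3 libraries). FOXO1 lay below FOXO3 in every library, at a mean log2 ratio of -2.73 ± 0.64. ARRDC3 exceeded ARRDC2 in every library, at 6.06, 3.25 and 1.34, but its spread kept it from the call. Without library 3 it met the call at a mean of 4.65. ARRDC2 was at 0.174, 0.921 and 2.01 FPKM, so this ratio and its spread also rest on low values. With 1 FPKM added to each gene its mean was 2.26 ± 1.21 (SD, n = 3). The ratio of FKBP5 to FKBP4 changed sign between libraries, and without library 1 it met the call at -2.76. KLF15 exceeded KLF9 in libraries 1 and 2 and was level with it in library 3, at -0.01. The mean of that ratio, 0.92 with an SD of 1.02, also did not exceed 2 SD, so it was not called. The exact two-sided sign-flip permutation p was 0.25 for each of the 4 called ratios, and 0.40 after Benjamini-Hochberg adjustment over the 8 pairs. As 0.25 is the smallest p that 3 libraries allow, no ratio could pass 0.05, and nothing is read from that.

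**Figure D4:**
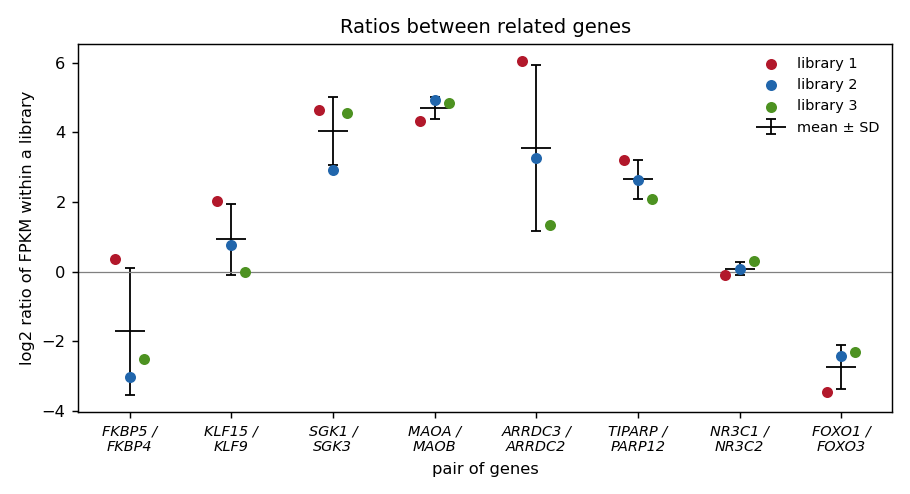
Log2 ratio of FPKM between the 2 genes of each pair within a library, with 1 point per library and the mean ± SD of 3 libraries in black. MAOA over MAOB is the tightest ratio far from 0, at 4.33 to 4.92, while FKBP5 over FKBP4 crosses 0, at 0.37 in library 1 and -3.02 and -2.51 in libraries 2 and 3.

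The receptor genes lay at low levels. NR3C1, the glucocorticoid receptor, was listed at 5.99, 3.61 and 6.26 FPKM, and NR3C2, the mineralocorticoid receptor, which also binds corticosterone, at 6.41, 3.46 and 5.11 FPKM. Both were lowest in library 2, and NR3C1 was highest in library 3, NR3C2 in library 1. Their log2 ratio was 0.09 ± 0.20 (SD, n = 3; exact sign-flip permutation p = 0.75) and its sign differed between libraries. HSD11B2, which inactivates glucocorticoids, was listed at 0.141, 0.233 and 0.074 FPKM, and HSD11B1, which regenerates them, was not matched.

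Of 20 genes listed for the receptor and its chaperones, 12 had a mean of at least 1 FPKM and 0 were apart in any library, where 6.92% of all genes were. The highest were the chaperone genes HSP90AA1, at 790, 601 and 540 FPKM, and HSPA8, at 484, 515 and 656 FPKM. The median log2 difference of library 1 was 0.36 from library 2 and 0.24 from library 3, against 0.13 and 0.16 over all genes.

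Other genes listed as glucocorticoid targets gave mixed results. Of 23 listed, 16 were matched and 11 had a mean of at least 1 FPKM. The 11 include TSC22D4, which entered for TSC22D3 through a synonym and may be a related gene rather than the listed one. Of the 11, 4 were apart upward in library 1 and 2 in library 2, where 2.96% and 0.586% of all genes were. CEBPB, a transcription factor of the acute and hormonal response, was listed at 43.7, 10.9 and 6.41 FPKM. RGS2, which shortens G-protein signals, was at 43.2, 12.0 and 8.01 FPKM, and the clock gene PER2 at 10.4, 2.48 and 2.83 FPKM. The fourth was GLUL, which makes glutamine from ammonia and glutamate, at 108, 31.1 and 23.4 FPKM.

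The 2 genes of the target list with the highest means went another way. MT4, a metallothionein that binds zinc and copper, was listed at 193, 657 and 221 FPKM, and CDKN1A, the cell cycle inhibitor p21, at 135, 531 and 117 FPKM. Both were apart upward in library 2, with libraries 1 and 3 close together.

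Among FOXO and fasting genes, 18 of 28 listed had a mean of at least 1 FPKM, 2 were apart upward in library 1 (2.96% of all genes) and 1 downward. PDK4, which blocks the entry of glucose carbon into the citrate cycle, was listed at 48.2, 12.5 and 10.2 FPKM. UCP3, a mitochondrial carrier that rises with fasting in mammalian muscle, was at 481, 146 and 110.2 FPKM. ULK1, the kinase that starts autophagy, was the one gene apart downward, at 4.14, 21.2 and 23.5 FPKM, where 1.53% of all genes were.

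Of the FOXO factors, FOXO3 was listed at 44.8, 13.6 and 24.7 FPKM, highest in library 1 but not apart from library 3, and FOXO1 lay lower, at 4.05, 2.55 and 4.95 FPKM. EIF4EBP1, the translation repressor that mTORC1 inactivates and the highest gene of this list, was nearly level at 570.1, 532 and 539 FPKM. FBXO32 and TRIM63, the muscle ubiquitin ligase genes most used as marks of wasting, were not matched.

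The insulin, PI3-kinase and mTORC1 list covers the pathway that PIK3IP1 and SESN1 restrain. Of its 29 genes, 19 had a mean of at least 1 FPKM and 0 were apart in any library, where 6.92% of all genes were. DEPTOR, an inhibitor inside the mTOR complexes, was the highest at 94.8, 43.0 and 69.0 FPKM. SEC13, a part of GATOR2, to which sestrins bind, was at 59.4, 44.4 and 46.6 FPKM. Of the 19, 12 were highest in library 1, beside 51.5% of all genes.

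Among amino acid breakdown genes, 9 of 15 had a mean of at least 1 FPKM and 1 was apart upward in library 1 (2.96% of all genes). This was BCKDHB, a subunit of the branched-chain keto acid dehydrogenase, at 73.2, 20.6 and 33.2 FPKM. After median scaling it was no longer apart. HIBCH, of valine breakdown and the highest of the list, was at 42.5, 42.9 and 54.1 FPKM.

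The short lists around the remaining genes held few measured members. Around BCL6, STAT5A, a cytokine signal carrier, was at 165, 85.6 and 72.7 FPKM, and CISH, a feedback inhibitor of that signal, at 35.3, 8.57 and 25.2 FPKM, apart downward in library 2 (0.541% of all genes). Around TIPARP, ARNT, the partner of the aryl hydrocarbon receptor, was at 58.8, 30.6 and 23.3 FPKM, and the receptor's classical target CYP1A1 did not exceed 0.025 FPKM. NQO1, another of its targets, was at 2.90, 3.94 and 1.37 FPKM. Around ARRDC3, the ubiquitin ligase genes WWP1 and WWP2 were at 105, 71.8 and 82.9 FPKM and at 3.01, 1.83 and 1.72 FPKM, and ADRB3 was the only β-adrenergic receptor gene matched, at no more than 0.073 FPKM.

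Over all 9 pathway lists, with each gene counted once and the 10 genes left out, 80 of 103 matched genes had a mean of at least 1 FPKM. Of these, 7 were apart upward in library 1 (2.96% of all genes) and 1 downward (1.53%). In library 2, 2 were apart upward (0.586%) and 1 downward (0.541%). The count of 7 was 12 without library 2 and 15 without library 3, where 6.23% and 5.46% of all genes were apart upward. With a library left out, fewer had to be exceeded, so this count could only stay or rise. The share highest in library 1 was 65.0%, against 51.5% of all genes. The median log2 difference of library 1 was 0.37 from library 2 and 0.35 from library 3. The lists were drawn up with earlier results of these libraries known, so these counts describe them and test nothing.

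**Figure D5:**
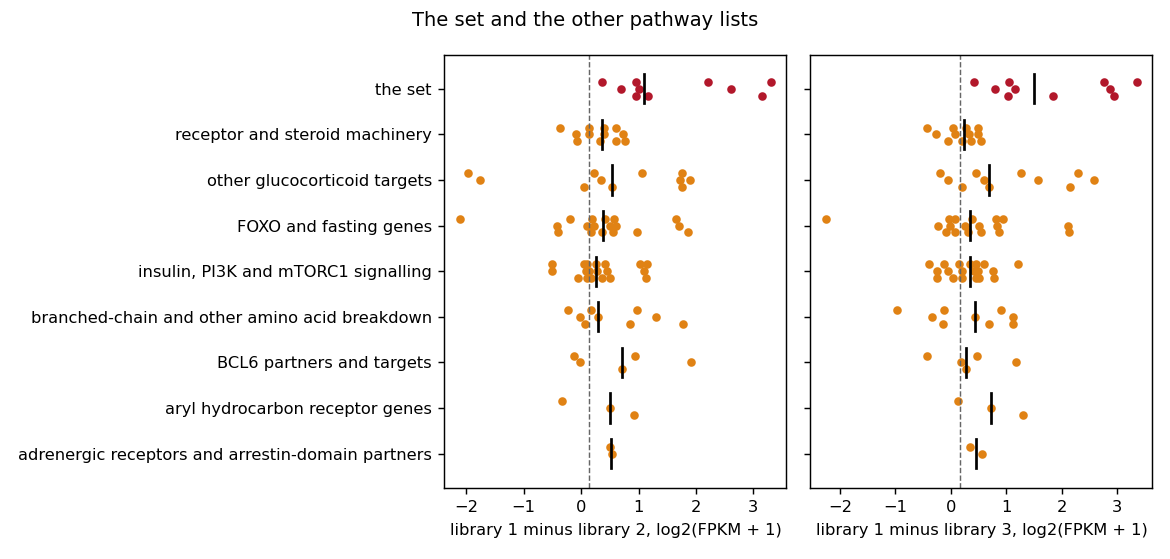
Difference of log2(FPKM + 1) of library 1 from library 2 (left) and from library 3 (right), with 1 point per gene with a mean of at least 1 FPKM, the 10 genes in red, the other lists in orange, for lists with at least 2 such genes, a black line at each list's median and a dashed line at the median of all genes. The median of the 10 genes is 1.09 and 1.51, and the medians of the other lists shown lie between 0.24 and 0.72. The circadian clock and immediate early lists are not shown. Their medians are 1.10 and 1.18 for the clock genes and 1.09 and 1.68 for the immediate early genes.

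Genes whose profile over the 3 libraries lay nearest to the median profile of the 10 genes were sought among 4356 other genes with a mean of at least 5 FPKM, by the Euclidean distance of centred log2 levels. They were BTG2, EPHX1L, HSD17B11, FAM43A and ALDH1A3, at distances of 0.22 to 0.23. EPHX1L, for example, was listed at 14.9, 5.24 and 4.49 FPKM. With 3 libraries, nothing more is read from it.

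Other genes also differed in library 1, and their part in the values above was not tested. Of 9 circadian clock genes with a mean of at least 1 FPKM, 7 were highest in library 1 (51.5% of all genes). Of the 9, 5 were apart upward in library 1, PER2 among them, and 0 downward, where 2.96% and 1.53% of all genes were. The 12 matched clock genes summed to 342, 160.4 and 165 FPKM. Of 7 immediate early genes, 6 were highest in library 1, beside the same 51.5%, with sums of 389, 170.0 and 136 FPKM. Of these 7, 5 were apart upward in library 1 and 0 downward, beside the same 2.96% and 1.53%. Of 7 skeletal muscle markers, 5 were lowest in library 1, beside 25.5% of all genes, with sums of 49639, 63408 and 64231 FPKM.

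Markers of other cell types moved in several directions. Adipocyte markers summed to 269, 165 and 94.3 FPKM. Library 1 was the highest for 5 of 7 (51.5% of all genes) and library 3 the lowest for 6 (39.4%). FABP4 was at 113, 71.3 and 15.5 FPKM, PLIN1 at 15.2, 7.13 and 2.38 FPKM and PLIN4 at 5.03, 4.05 and 0.394 FPKM. These 3 were apart downward in library 3, where 74 of all 6650 genes were. G0S2, at 93.6, 42.7 and 27.4 FPKM, was apart upward in library 1, and ADIPOQ, at 38.4, 36.1 and 46.9 FPKM, was highest in library 3. Macrophage markers summed to 407, 351 and 171 FPKM, with 7 of 7 lowest in library 3 (39.4% of all genes). Of these 7, 4 were highest in library 1, beside 51.5% of all genes. Endothelial markers summed to 92.1, 52.5 and 60.1 FPKM, with 4 of 6 highest there, beside the same 51.5%. Fibroblast markers summed to 400.0, 875 and 651 FPKM, with 4 of 6 lowest in library 1, beside 25.5% of all genes. Red blood cell markers summed to 37.3, 72.9 and 119 FPKM, with 3 of 3 lowest there, beside the same 25.5%. Of these 3, HBA1 was at 2.19e-13, 7.91e-07 and 3.10 FPKM, so libraries 1 and 2 were too low to be ranked. The red blood cell sums include ALAS1, which entered for ALAS2 through a synonym and is not specific to red blood cells. ALAS1 was at 12.9, 17.9 and 17.5 FPKM. The count thus rests on HBBA, at 24.3, 54.1 and 98.7 FPKM and apart downward in library 1.

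Lymphocyte markers summed to 19.4, 33.0 and 10.4 FPKM, with 4 of 4 highest in library 2, beside 26.1% of all genes. Heterophil markers summed to 2.84, 5.53 and 0.488 FPKM. On the heterophil list LECT2, which entered through the synonym MIM1, was listed at 0 in every library. In bulk tissue, fewer cells of a type and less RNA per cell cannot be told apart.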

How the data were processed

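Breast muscle RNA was isolated with TRIzol, enriched with oligo(dT) beads and made into Illumina libraries, per the labels' protocols. The authors deposited 1 table of 36977 RefSeq transcripts per library, with no unit named. The deposited values were treated as FPKM, an inference: they are not whole numbers and 4247 to 4370 per library lie between 0 and 0.001. CASAVA 1.7, Bowtie2 and HTSeq are named in the submitters' processing notes. The build, annotation and quantifier are not given in the sources. Whole reads could not be recovered: of 361 transcripts between 0.01 and 0.03 in libraries 1 and 2, at most 4 shared a ratio to 3 decimals of the natural log.

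Transcripts were paired with genes through a RefSeq table of assembly GRCg7b, for names only (35.7% matched), and summed per gene with pandas 2.3.3 in Python 3.11.15. Genes with a mean of at least 1 entered as log2(FPKM + 1), which understates changes at low levels. The 28 lists, the members among them (209 of 308 genes matched, 6 by a synonym), were chosen with earlier results of these data known. Named genes were the members, both genes of each pair, the 2 highest and the apart genes of each pathway list, and the 5 nearest profiles; 1 of these is not reported here. Genes named beyond that rule, such as KLF6, HSD11B2, CYP1A1, ADRB3 and single markers, were chosen after their values were seen. The rule was checked on simulated data with equal log2 noise at every level, so the check does not give the rate of wrong calls in these libraries. Alternatives were pseudocount 0.1, median-of-ratios scaling, curated transcripts only, other filters and libraries left out. Sequences and promoter motifs were not analysed here.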

Additional observations from a re-analysis of the deposited data

How the results depend on the processing

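All 10 genes stayed highest in library 1 after scaling. A pseudocount is the same in each library and cannot change which is highest. With curated transcripts only, 4 of the 10 were measured, and 4 were highest in library 1 and 2 apart upward there (FKBP5 and BCL6). Each of these 4 had 1 matched transcript, so their values were the same as before and could not differ. The count of 5 genes apart in library 1 was 4 after scaling (without BCL6), 6 with pseudocount 0.1 (with TIPARP), and 6 to 8 with library 3 or library 2 left out. The share of all genes apart upward there was 2.06% after scaling, 4.65% with pseudocount 0.1 and 2.88% with curated transcripts only. The 8 without library 2 included ARRDC3, MAOA and TIPARP, and the 6 without library 3 included SGK1. The 7 other pathway genes became 6 after scaling, 8 with no filter, 12 without library 2 and 15 without library 3, where 6.23% and 5.46% of all genes were apart. With no filter 2.21% of all genes were apart upward, and the gene added was MT3, at 2.42, 0 and 0 FPKM. Without library 1 these counts do not exist. The 4 called ratios became 1 of 3 measured with curated transcripts only, and 4 to 5 with a library left out: FKBP5 to FKBP4 was called without library 1, at -2.76, and ARRDC3 to ARRDC2 without library 3, at 4.65. With curated transcripts only, fewer genes were measured. With library 2 or 3 left out, a gene had fewer libraries to exceed, so the counts apart upward in library 1 could only stay or rise. The cause of the other shifts was not tested. Scaling factors were 1.09, 0.977 and 0.955. No single difference of the 10 genes reversed after scaling, the only alternative that could have reversed it. No paired analysis was possible because the libraries form 1 group.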

Other observations

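The 4 places ahead of SESN1 in the order of leads in library 1 were held by other genes, chosen here after their values were seen. PTGDS, a prostaglandin D synthase of the lipocalin family, had 175, 10.0 and 12.1 FPKM in libraries 1, 2 and 3. AQP4, a water channel of fast muscle fibres in mammals, was at 19.6, 1.05 and 0.959 FPKM. CHAC1, which degrades glutathione, was at 61.8, 3.73 and 4.64 FPKM, and SOCS3, a feedback inhibitor of cytokine signals, at 52.5, 4.38 and 2.62 FPKM. Between KLF15 and these stood transporters as well, among them SLC43A2, which carries neutral amino acids, at 22.6, 1.81 and 3.16 FPKM, and SLC16A9, of the monocarboxylate carrier family, at 42.7, 5.72 and 7.70 FPKM.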
